A study of Homo sapiens with 4 samples.

Results

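Chromosome 19 is a short, gene-dense human chromosome. It carries large tandem families, among them the KRAB zinc finger genes, which encode repressors of transposable elements, and the kallikrein genes, which encode serine proteases such as prostate-specific antigen. Open chromatin far from gene ends often marks enhancers, DNA stretches that bind transcription factors and raise the activity of genes at a distance. In luminal prostate cancer cells many such sites are bound by the androgen receptor, the target of the antagonist enzalutamide.

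ATAC-seq, an assay in which open DNA is cut and tagged with adapters by a transposase, had been run on LNCaP cells (2 libraries) and on the enzalutamide-resistant line that the labels name LNCaP-resistance (2 libraries). LNCaP is an androgen-dependent prostate cancer cell line of lymph node origin, labelled WT. The resistant line was labelled as treated with enzalutamide and shared with its parent a medium of RPMI-1640 with fetal bovine serum. By the study's methods, such sublines were derived from LNCaP by adaptation to charcoal-stripped serum, which lacks androgen, followed by stepwise increases of the drug. The labels give no dose, time in drug or subline number, but the deposited peak names of both resistant libraries carry the number 35 after LNCaP. The study's results number its sublines, and a figure legend sets these names beside increasing drug concentrations. Nothing says that the libraries of a line came from separate cultures, so the spread between them may be technical. ATAC-seq of bulk cells does not tell a site open in fewer cells from a site less open in each cell.

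For every library the deposited data give the summit of each peak, the single base of highest signal, with a score of the form −log10 p-value or q-value. The regions described here were made by widening each summit by 250 bp per side and merging overlapping windows of all 4 libraries. A region was called distal when its strongest summit lay over 3 kb from either end of any RefSeq gene of GRCh38. Of 150917 regions on the main chromosomes, 4792 lay on chromosome 19, and 2344 of these were distal. The other 21 autosomes held 100741 distal regions and served as background. The members closest to the limit lay 3005 bp from a gene end, inside AKT2, and 3007 bp from GPR42, and the nearest regions left out lay at 2997 bp from MEX3D and 2994 bp from GDF1.

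Chromosome 19 was chosen for its gain of regions in resistance, and the values that chose it were the presence and the score of these same summits. All contrasts of presence and score between the lines are therefore given as a description, with no test. With 2 libraries per line, an exact two-sided permutation test could not give a p-value below 0.333 in any case. Intervals given for shares are 95% Wilson intervals, which treat regions as independent and cover counting error only.

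LNCaP replicates 1 and 2 had 117245 and 107344 summits, against 70866 and 45618 in LNCaP-resistance replicates 1 and 2. They carry no read counts, so the sequencing depth behind them is unknown, and its part in the shorter resistant lists was not tested. Luminal prostate markers were checked by the presence of a summit within 3 kb of a gene end, and 10 of 10 had one in every library. Of 6 basal or stromal markers, 5 had one in LNCaP replicate 1 and 4 in each of the other libraries. KRT5, a basal keratin, had none in any library, and TP63, the basal lineage factor, had one only in LNCaP replicate 1, at percentile 0.0230. The other 4, KRT14, VIM, COL1A1 and ACTA2, had one in every library, with percentiles of 75.9 to 94.2. The median percentile per library was 79.2 to 84.2 over the basal or stromal list and 62.7 to 83.0 over the luminal list, so summits near gene ends did not set the luminal markers apart. KLK3, the gene of prostate-specific antigen, on chromosome 19, had a low percentile in LNCaP (4.79 and 3.46) and a higher one in the resistant line (82.7 and 60.6).

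The chromosome 19 share of distal accessibility was higher in both resistant libraries than in both LNCaP libraries. Of the distal autosomal summits of LNCaP replicates 1 and 2, 2.11% (2.02 to 2.22) and 2.205% (2.10 to 2.32) lay on chromosome 19. The share was 3.20% (3.04 to 3.38) and 3.36% (3.14 to 3.60) in LNCaP-resistance replicates 1 and 2. The means were 2.16 ± 0.0639% and 3.28 ± 0.111% (SD, n = 2 libraries each), a difference of 1.12 percentage points, or 1.52-fold, beside a pooled SD of 0.0908. Within the labelled batch repeat1 the share was 1.51-fold higher in the resistant library, and within repeat2 1.52-fold. The absolute number moved the other way: 1687 and 1580 distal summits on chromosome 19 in LNCaP against 1313 and 792 in the resistant line. The resistant lists thus held fewer chromosome 19 distal summits than the LNCaP lists, but lost a smaller part of them there than elsewhere.

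**Figure D1:**
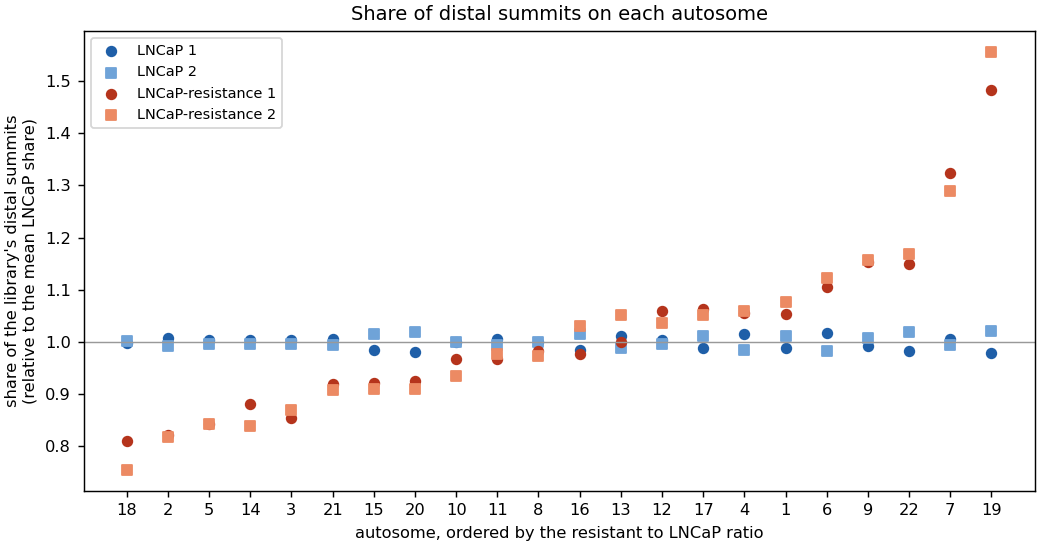
Share of each library's distal autosomal summits that lay on each of the 22 autosomes, divided by the mean share of the 2 LNCaP libraries (y axis, ratio with no unit), with autosomes ordered along the x axis by the resistant to LNCaP ratio. Points are single libraries, and both resistant points for chromosome 19 lie above those of every other autosome.

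Chromosome 19 had the highest ratio of the 22 autosomes. The ratios of the other autosomes ran from 0.782 for chromosome 18 to 1.31 for chromosome 7, with a median of 0.978. The shift was not restricted to distal sites. Summits within 3 kb of a gene end on chromosome 19 made up 5.44% and 5.39% of such summits in LNCaP and 6.82% and 6.84% in the resistant line, a ratio of 1.26. The distal part of all chromosome 19 summits was lower in the resistant libraries, at 40.8% and 35.8%, than in LNCaP, at 47.3% and 47.0%. The other autosomes differed in the same direction, from 70.5% and 69.1% to 60.4% and 54.0%.

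The members were sorted by the libraries that held them. Resistant-only regions, with a summit in both resistant libraries and neither LNCaP library, numbered 111, or 4.74% (3.95 to 5.67) of the members. On the other autosomes 3.25% of distal regions were resistant-only, and single chromosomes ranged from 2.45% on chromosome 18 to 4.68% on chromosome 7. The chromosome 19 share was thus 1.46 times the background, and close to that of chromosome 7. LNCaP-only regions, the converse, numbered 484, or 20.6% (19.1 to 22.3), against 31.8% on the other autosomes, which ranged from 24.8% to 36.9%. Regions present in all 4 libraries numbered 509, or 21.7%, against 15.0% elsewhere. The other 1240 members were found in a mixed set of libraries, and 266 of these were found in LNCaP-resistance replicate 1 alone.

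**Figure D2:**
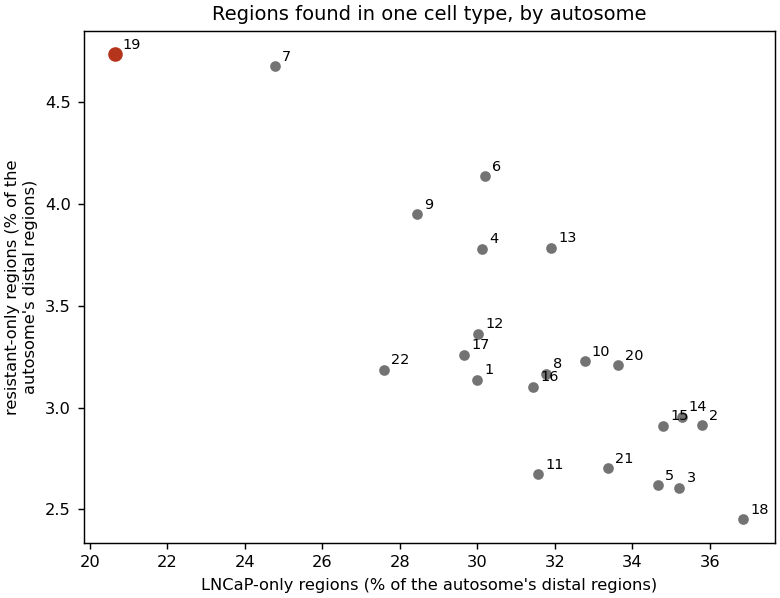
Resistant-only regions (y axis, percent of an autosome's distal regions) against LNCaP-only regions (x axis, same unit), with 1 point per autosome, labelled by its number, and chromosome 19 in red. Chromosome 19 sits at the upper left corner, with 4.74% resistant-only and 20.6% LNCaP-only regions, and chromosome 7 is the nearest point, at 4.68% and 24.8%.

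LNCaP-only regions therefore outnumbered resistant-only regions on chromosome 19 as on every other autosome, with 22.9 resistant-only regions for each 100 LNCaP-only ones. On the other autosomes this number ran from 6.65 to 18.9. The order depended on the length of the lists. When each list was cut to its 45618 highest-scoring summits, chromosome 19 held 281 resistant-only and 160 LNCaP-only distal regions. The cut left LNCaP-resistance replicate 2 whole, and resistant-only then meant no LNCaP summit above the cut. Such regions can hold a weaker LNCaP summit in the full lists, where 111 members were resistant-only. With the cut lists, resistant-only regions were 22.7% of the distal regions on chromosome 19 and 13.0% of those on the other autosomes. LNCaP-only regions were 12.9% on chromosome 19, the lowest such share of the 22 autosomes. Without LNCaP-resistance replicate 2, the shortest list, resistant-only regions numbered 380, or 16.5%, against 11.2% on the other autosomes. A resistant-only region then needed a summit in replicate 1 alone, so this count is not comparable with that of 4 libraries.

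Regions near gene ends differed in the same direction. Of 2448 chromosome 19 regions within 3 kb of a gene end, 169 (6.90%) were resistant-only, against 4.95% on the other autosomes, and 247 (10.1%) were LNCaP-only, against 18.7%. The distal regions of the resistant libraries also overlapped those of LNCaP more on chromosome 19 than elsewhere. The regions found in both of 2 libraries, as a percent of those found in either, ran from 32.3% to 40.5% between a LNCaP and a resistant library on chromosome 19, and from 21.3% to 30.1% on the other autosomes. Between the LNCaP libraries these values were 64.0% and 63.3%, and between the resistant libraries 52.5% and 49.1%.

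Score percentiles gave a second view of the members present throughout. The percentile of a summit is the part of all summits in its library, in percent, whose score it reached or passed. The 509 members of all 4 libraries had median percentiles of 70.9 and 69.3 in LNCaP and of 70.9 and 54.0 in LNCaP-resistance replicates 1 and 2. The same medians on the other autosomes were 76.0 and 73.6 in LNCaP and 65.8 and 47.0 in the resistant line. On chromosome 19, LNCaP-resistance replicate 1 thus lay at the LNCaP level, and replicate 2 lay below it. The median change of a region, resistant mean minus LNCaP mean, was −4.81 percentile points on chromosome 19 and −14.1 on the other autosomes, a gap of 9.27 points. The median changes of single other autosomes ran from −18.8 on chromosome 18 to −8.37 on chromosome 22, all lower than that of chromosome 19.

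Both resistant percentiles exceeded both LNCaP percentiles in 110 of the 509 regions (21.6%, 18.3 to 25.4), against 11.5% elsewhere. Both lay below in 206 regions (40.5%), against 54.5% elsewhere, and in 193 regions the lines overlapped. With lists of equal length the median change was 6.003 points on chromosome 19 and −3.01 points on the other autosomes, a gap of 9.02 points. With full lists and percentiles taken among the distal autosomal regions of all 4 libraries alone, the median changes were 9.77 and 0.202 points, a gap of 9.57. The sign of the change thus depended on the list length and on the set ranked, and chromosome 19 lay above the other autosomes in each case.

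**Figure D3:**
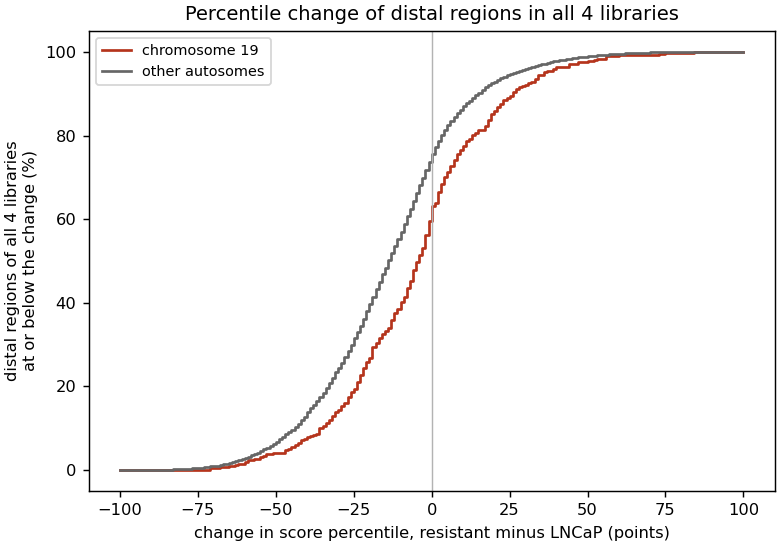
Change in score percentile from LNCaP to the resistant line (x axis, percentile points, mean of 2 resistant minus mean of 2 LNCaP libraries) and the percent of regions at or below it (y axis), for distal regions of all 4 libraries on chromosome 19 (509, red) and on the other autosomes (15071, grey). The red curve lies to the right of the grey one through the middle of the range, with medians of −4.81 and −14.1.

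The strongest resistant sites on chromosome 19 were mostly also sites of LNCaP. Among the 89 members in the top 10% of scores of LNCaP-resistance replicate 1, 7 (7.87%, 3.86 to 15.4) had no summit in LNCaP replicate 1, against 5.25% on the other autosomes, and 0 were absent from LNCaP-resistance replicate 2. Of the 54 in the top 10% of LNCaP-resistance replicate 2, 1 (1.85%) had no summit in LNCaP replicate 1, against 2.73% elsewhere. In the converse direction, 28 of 141 top members of LNCaP replicate 1 (19.9%) were absent from LNCaP-resistance replicate 1 and 47 (33.3%) from replicate 2. These shares were 28.2% and 39.8% on the other autosomes.

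The resistant-only region of highest percentile lay 15307 bp from the lower-coordinate end of NFIC, a CCAAT-binding transcription factor of the nuclear factor I family, at chr19:3344073-3344582. It was outside annotated genes, at percentiles 98.3 and 95.5 in LNCaP-resistance replicates 1 and 2. The next lay inside FBXO17, which encodes an F-box adaptor of ubiquitin ligases, at chr19:38949654-38950232, with percentiles of 90.1 and 88.6. Another lay in the zinc finger cluster of the p arm at chr19:21474544-21475044, 8921 bp from the noncoding gene LINC00664 and with ZNF429 as nearest protein-coding gene, at percentiles 91.1 and 84.5. The region inside DNAJB1, which encodes an HSP40 co-chaperone of HSP70, was at chr19:14518478-14519014 and reached 87.9 and 86.7. All 4 of these regions were at percentile 84.5 or higher in both resistant libraries and had no summit in either LNCaP library.

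The other 6 of the 10 resistant-only regions named by mean percentile were lower or less even between the libraries. At chr19:15555657-15556264, 3590 bp from CYP4F22, a fatty acid hydroxylase, the percentiles were 86.3 and 71.7. Inside PNPLA6, a phospholipase, the region at chr19:7554821-7555355 had percentiles of 77.7 and 79.5. Inside C5AR1, the receptor of complement fragment C5a, the region at chr19:47315214-47315743 had percentiles of 91.3 and 62.6, the widest gap between the libraries among the 10. CCDC61, which encodes a centrosomal protein, held 2 resistant-only regions, at chr19:46000838-46001341 (79.7 and 74.0) and chr19:46015201-46015724 (81.2 and 71.8). Inside MAST1, a microtubule-associated kinase, the region at chr19:12866442-12866947 had percentiles of 77.4 and 73.2. The gene table used gives no exons, so a region inside a gene was not assigned to an exon or an intron.

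The 111 resistant-only regions as a whole were mid-ranked and scattered. Their median percentile was 58.3 in LNCaP-resistance replicate 1 and 38.5 in replicate 2, against 51.1 and 30.3 for the resistant-only distal regions of the other autosomes. The median gap between neighbouring resistant-only regions was 292722 bp, and 8 gaps were within 20 kb. By nearest protein-coding gene, they fell to 101 genes, of which 9 had more than 1.

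TCF3, which encodes a basic helix-loop-helix E protein, was the nearest protein-coding gene of 3 resistant-only regions, the highest number. They spanned chr19:1682588-1683168, chr19:1690696-1691201 and chr19:1700923-1701610, with percentiles of 42.9 and 55.4, 26.1 and 10.3, and 13.6 and 16.5. Of the 7 members nearest TCF3, LNCaP replicates 1 and 2 held 2 and 0, and LNCaP-resistance replicates 1 and 2 held 6 and 3. KCNN4, a calcium-activated potassium channel, had 2 resistant-only regions, at chr19:43774331-43774861 (78.0 and 65.5) and chr19:43785224-43785759 (49.5 and 25.5). None of its 3 members had a summit in LNCaP, whereas 3 and 2 had one in the resistant libraries. ZNF91, a KRAB zinc finger repressor of SVA retrotransposons, had 2 resistant-only regions among 4 members, with 2 and 0 found in LNCaP and 3 and 3 in the resistant line. CEACAM1, a cell adhesion molecule, had 2 resistant-only and 1 LNCaP-only among 4, with 1 and 1 found in LNCaP and 3 and 2 in the resistant line. CCDC61 had 2 and 0 among 3. Other genes with 2 resistant-only regions had as many or more LNCaP-only ones. MYO9B had 5 among 12 members, with 9 and 7 found in LNCaP and 4 and 4 in the resistant line. SBNO2, NFIC and PPFIA3 each had 2, among 12, 13 and 6 members. Over all members 4.74% were resistant-only, and the genes named here were picked for their resistant-only regions after the values were seen.

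**Figure D4:**
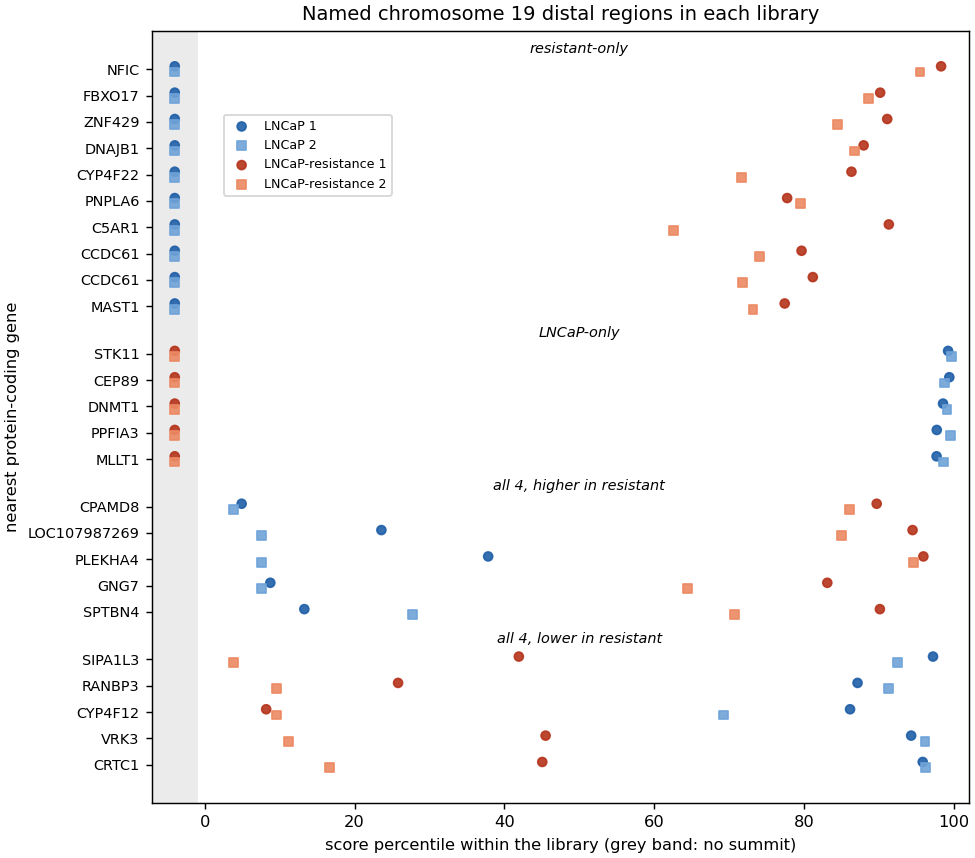
Score percentile within each library (x axis, percent) of the 25 named members, labelled by nearest protein-coding gene (y axis) and grouped by the rule that named them. Circles and squares are replicates 1 and 2, blue for LNCaP and red for LNCaP-resistance, and a point in the grey band marks a library with no summit, as for both LNCaP libraries of the 10 resistant-only regions.

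The strongest of the 484 LNCaP-only members reached higher mean percentiles than the strongest of the 111 resistant-only ones, a smaller set. The classes as a whole did not differ in this way. Median percentiles were 50.7 and 47.8 for LNCaP-only members in LNCaP replicates 1 and 2. They were 58.3 and 38.5 for resistant-only members in LNCaP-resistance replicates 1 and 2. A region inside STK11, which encodes the LKB1 kinase that activates AMPK, lay at chr19:1213709-1214219 with percentiles of 99.2 and 99.7 in LNCaP and no summit in either resistant library. A region inside CEP89, a centriolar appendage protein, at chr19:32924255-32924756 had percentiles of 99.4 and 98.8. Inside DNMT1, the maintenance DNA methyltransferase, the region at chr19:10184518-10185019 had percentiles of 98.5 and 99.1. The remaining 2 named regions lay inside PPFIA3, a liprin scaffold protein of synapses, at chr19:49142761-49143298 (97.7 and 99.5) and inside MLLT1, a reader of acetylated histones, at chr19:6259188-6259692 (97.7 and 98.6). PPFIA3 also held 2 resistant-only regions, at chr19:49124614-49125618 and chr19:49129174-49129722, so losses and gains occurred within 1 gene.

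Among members of all 4 libraries, the largest rise was inside CPAMD8, a gene of the alpha-2-macroglobulin and complement family, at chr19:16897043-16897761. Its percentiles were 4.93 and 3.81 in LNCaP and 89.7 and 86.1 in the resistant line, a rise of 83.5 points. Inside PRKD2, which encodes protein kinase D2, and with LOC107987269 as nearest protein-coding gene end, the region at chr19:46697018-46697958 moved from 23.6 and 7.62 to 94.5 and 85.0. Inside PLEKHA4, a pleckstrin homology domain protein, the region at chr19:48859960-48860567 moved from 37.8 and 7.62 to 95.9 and 94.6, and a resistant-only region of percentiles 64.7 and 46.6 lay next to it at chr19:48859198-48859704. These 3 regions were near the bottom or in the lower part of the LNCaP lists and near the top of the resistant ones. Inside GNG7, a G protein gamma subunit, the region at chr19:2642671-2644032 moved from 8.75 and 7.62 to 83.1 and 64.4. Inside SPTBN4, a spectrin of the axon initial segment, the region at chr19:40487839-40488406 moved from 13.3 and 27.8 to 90.1 and 70.7, and a resistant-only region lay beside it at chr19:40489478-40489982 (58.7 and 62.4).

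The largest falls were of similar size, but differed more between the resistant libraries. Inside SIPA1L3, a Rap GTPase-activating protein, the region at chr19:38079649-38080482 had percentiles of 97.2 and 92.4 in LNCaP and 41.9 and 3.86 in the resistant line, a change of −71.9 points. Inside RANBP3, a nuclear export cofactor, the region at chr19:5967812-5968483 moved from 87.1 and 91.3 to 25.8 and 9.58. Near CYP4F12, a cytochrome P450, the region at chr19:15702510-15703087 moved from 86.1 and 69.3 to 8.20 and 9.58. The region inside VRK3, a kinase-like protein, at chr19:49987136-49987714 changed by −66.8 points, and that inside CRTC1, a coactivator of CREB, at chr19:18741630-18742212 changed by −65.2 points. In SIPA1L3, VRK3 and CRTC1, LNCaP-resistance replicate 2 lay well below replicate 1.

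The 5 members with the highest mean percentile over all libraries lay inside zinc finger genes. These were ZNF846 (chr19:9768449-9768962), ZNF563 (chr19:12333475-12334033), ZNF790 (chr19:36838109-36838654), ZNF749 (chr19:57435019-57435535) and ZNF254 (chr19:24086896-24087407). The lowest of their percentiles in any library was 97.9, and the changes between the lines were −0.57 to −0.95 points.

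Members assigned to zinc finger genes, by nearest protein-coding gene or by the gene they lay in, numbered 207 around 83 of the 262 zinc finger genes of the chromosome. The LNCaP libraries held 139 and 137 of them, and the resistant libraries 121 and 77. Of these 207 regions, 10 (4.83%) were resistant-only, 41 (19.8%) LNCaP-only and 52 present in all libraries, shares close to those of all members. These shares joined unlike parts, picked out after the values were seen. By nearest protein-coding gene, 39 members at 20 to 25 Mb held 7 resistant-only regions, and 65 at 27 to 36 Mb held 1. ZNF536 alone gave 18 of the 41 LNCaP-only regions, from 34 members. Of the 52, both resistant percentiles were above both LNCaP percentiles in 13 and below in 18, with a median change of −0.83 points, beside −4.81 over all members. The distal regions of zinc finger genes on the other autosomes numbered 1231, of which 45 (3.66%) were resistant-only and 352 (28.6%) LNCaP-only, with a median change of −9.98 points. Zinc finger genes thus differed between chromosome 19 and the other autosomes in the same direction as all distal regions.

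Over all members, 4.74% were resistant-only and 20.6% LNCaP-only, and the smaller families held few of either. The kallikrein family held 12 members, of which 1 was resistant-only (8.33%), 3 LNCaP-only (25%) and 3 shared by all libraries. The resistant-only region lay nearest KLK15, at chr19:50837272-50837790, with percentiles of 73.2 and 57.0. The libraries held 8, 8, 6 and 5 of the 12, in the order LNCaP replicates 1 and 2 and LNCaP-resistance replicates 1 and 2. The CEACAM and PSG cell adhesion family held 41 members, of which 2 were resistant-only (4.88%) and 9 LNCaP-only (21.95%). Among 26 members assigned to leukocyte receptor genes by symbol, 8 were LNCaP-only (30.8%), and the 1 resistant-only region lay in NPHS1, nearest KIRREL2, which is not a leukocyte receptor. Cytochrome P450 genes had 1 resistant-only (6.25%) and 4 LNCaP-only (25%) of 16 members, and genes of the NLRP family 1 and 1 of 16. The 3 members nearest olfactory receptor genes had no summit in the resistant libraries.

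Genes listed for neuronal or secretory function had 81 members, with 6 resistant-only (7.41%, beside 4.74% of all members), 12 LNCaP-only (14.8%, beside 20.6%) and 13 in all libraries. KCNN4 alone gave 2 of the 6 resistant-only regions from its 3 members, so the higher share rested in part on 1 gene. The LNCaP libraries held 47 and 52 of the 81, and the resistant libraries 49 and 25. Apart from both KCNN4 regions, the resistant-only ones lay near CACNA1A, a P/Q-type calcium channel (chr19:13191103-13191617, percentiles 18.4 and 51.2), and inside NOVA2, a neuronal splicing factor (chr19:45953140-45953709, 64.5 and 33.6), GRIN2D, an NMDA receptor subunit (chr19:48415348-48415879, 39.98 and 16.5), and SYT5, a synaptotagmin (chr19:55174905-55175405, 64.1 and 53.8). CACNA1A, as nearest protein-coding gene, also had 5 LNCaP-only regions among its 32 members, of which the LNCaP libraries held 21 and 24 and the resistant libraries 18 and 8. LNCaP-resistance replicate 1 was thus level with the LNCaP libraries for this list despite its shorter total, and replicate 2 was lower.

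Transcription and chromatin regulators had 192 members, of which 11 (5.73%, beside 4.74% of all members) were resistant-only, 48 (25%, beside 20.6%) LNCaP-only and 39 in all libraries. TSHZ3 alone gave 20 of the 48 LNCaP-only regions from its 37 members, so the higher LNCaP-only share rested in part on 1 gene. Besides those of TCF3 and NFIC, the resistant-only regions included 1 inside SMARCA4, the BRG1 ATPase of the SWI/SNF remodelling complex, at chr19:11053384-11053888 with percentiles of 53.7 and 31.2. SMARCA4 also had 1 LNCaP-only region among its 10 members, of which LNCaP held 5 and 9 and the resistant line 5 and 4. Others lay inside ELL, an elongation factor (chr19:18469522-18470022, 42.1 and 36.8, beside 5 LNCaP-only regions), CIC, a repressor (chr19:42280208-42280763, 53.5 and 33.0), and SPIB, an ETS factor (chr19:50427878-50428389, 83.3 and 66.7). JUNB, an AP-1 subunit, was nearest to a region inside HOOK2 (chr19:12782036-12782941), and HIF3A, a hypoxia-inducible factor, to a region outside genes (chr19:46280644-46281189). KDM4B, a histone demethylase and androgen receptor cofactor that was on no list, had 10 LNCaP-only regions and no resistant-only one among 17 members. LNCaP replicates 1 and 2 held 15 and 16 of these 17, and the resistant libraries 6 and 4. This gene was picked after its values were seen.

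Growth and survival genes had 44 members, of which 3 were resistant-only (6.82%, beside 4.74% of all members), 11 LNCaP-only (25%, beside 20.6%) and 12 in all libraries. CCNE1, the cyclin E1 gene, was nearest to 5 of these LNCaP-only regions, so the higher LNCaP-only share rested in part on 1 gene. The resistant-only regions lay inside INSR, the insulin receptor (chr19:7159431-7159932, 78.8 and 45.4), AXL, a receptor tyrosine kinase (chr19:41226279-41226792, 51.6 and 57.3), and PLAUR, the urokinase receptor (chr19:43652018-43652703, 29.4 and 36.2). The 1709 members on no list held 75 resistant-only (4.39%) and 346 LNCaP-only (20.2%) regions.

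Along the chromosome the arms were divided at the middle of the longest stretch without an annotated gene, chr19:24179012-27681071. The p arm held 1146 members, with 53 resistant-only (4.62%) and 210 LNCaP-only (18.3%). The q arm held 1198, with 58 (4.84%) and 274 (22.9%). For regions counted once per library, the share of a library's autosomal distal regions on chromosome 19 was 1.53-fold higher in the resistant line. This ratio was 1.62 on the p arm and 1.45 on the q arm, so both arms contributed.

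In 1 Mb bins the raw excess was mostly on the LNCaP side with the full lists. With lists of equal length, 36 bins had a resistant-only excess, where resistant-only again meant no LNCaP summit above the cut. Bins of the other autosomes were not counted at equal length. Their resistant-only share also rose there, from 3.25% to 13.0%, so the 36 bins alone do not set chromosome 19 apart. With the full lists, of 57 bins with members, 6 (10.5%) had more resistant-only than LNCaP-only regions, against 77 of 2673 bins (2.88%) on the other autosomes. The numbers were equal in 5 bins, and LNCaP-only regions were in excess in 46. The bins of resistant excess were small in number of regions: 12 to 13 Mb (2 against 0), 20 to 21 Mb (1 against 0), 22 to 23 Mb (2 against 0), 23 to 24 Mb (3 against 0), 43 to 44 Mb (4 against 3) and 53 to 54 Mb (2 against 1). The largest LNCaP excess lay on the proximal q arm, at 28 to 29 Mb (0 against 25), 30 to 31 Mb (1 against 22), 29 to 30 Mb (1 against 21), 31 to 32 Mb (0 against 19) and 34 to 35 Mb (1 against 20). Relative to each library's total, by contrast, 39 of 46 bins with at least 20 members had a higher mean share in the resistant libraries. The ratio had a median of 1.62 and ran from 0.250 at 31 to 32 Mb to 3.03 at 43 to 44 Mb.

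**Figure D5:**
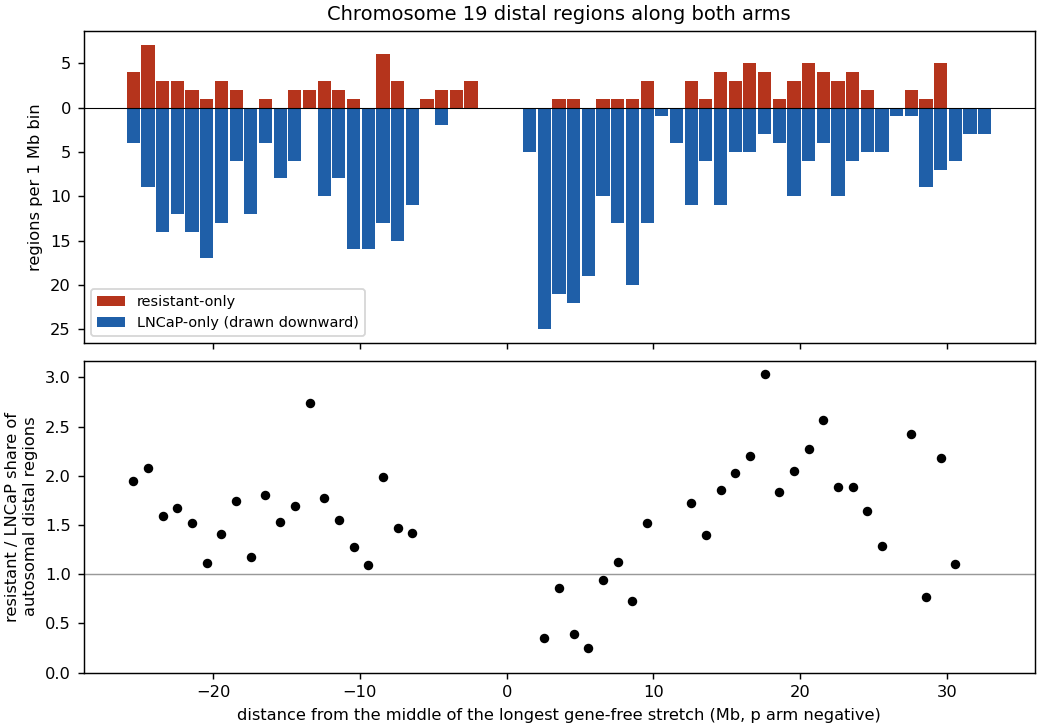
Top, resistant-only (red, upward) and LNCaP-only (blue, downward) distal regions per 1 Mb bin of chromosome 19 (y axis, regions). Bottom, ratio of the mean resistant to the mean LNCaP share of autosomal distal regions for the 46 bins with at least 20 members (y axis, no unit). The x axis of both gives the distance in Mb from the middle of the longest gene-free stretch, with the p arm negative, and blue bars are longest and ratios lowest just to its right, on the proximal q arm.

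A pair of stretches flanking the gene-free centre moved in opposite directions. They were delimited after the bin values were seen. On the p arm, between 20 and 25 Mb, a cluster of zinc finger genes held 45 members, 39 of them with a zinc finger gene as nearest protein-coding gene. LNCaP replicates 1 and 2 each held 16 of these, and LNCaP-resistance replicates 1 and 2 held 35 and 19. Both resistant libraries thus exceeded both LNCaP libraries in absolute number, although the lists were shorter. The 8 resistant-only regions lay nearest LOC124904660, ZNF429, ZNF100, ZNF98, ZNF723, ZNF91 (2 regions) and ZNF681, against 2 LNCaP-only regions. These were 17.8% and 4.44% of the 45 members, beside 4.74% and 20.6% of all members. Percentiles of the 8 resistant-only regions ran from 2.0 for the ZNF681 region in LNCaP-resistance replicate 1 to 91.1 for the ZNF429 region in the same library.

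On the q arm, between 27 and 36 Mb, 418 members included 8 resistant-only (1.91%) and 148 LNCaP-only (35.4%) regions. On single other autosomes these shares ran from 2.45% to 4.68% and from 24.8% to 36.9%. The LNCaP-only share of the stretch thus lay within the range of whole autosomes. The LNCaP libraries held 311 and 303 of the 418 members and the resistant libraries 133 and 73, a ratio of autosomal distal shares of 0.773. The lowest ratio of another autosome, taken over summits, was 0.782, for chromosome 18. With lists of equal length the stretch held 23 resistant-only and 50 LNCaP-only regions, an excess of 27 in place of 140 on the LNCaP side. Absence there again meant no summit above the cut. The regions nearest UQCRFS1, which encodes the Rieske subunit of respiratory complex III, numbered 74, of which 34 were LNCaP-only and 0 resistant-only. LNCaP held 58 of the 74 in each library, and the resistant line held 16 and 5. Of 37 members nearest TSHZ3, a zinc finger homeodomain factor, 20 were LNCaP-only and 0 resistant-only, with 31 and 27 found in LNCaP and 3 and 2 in the resistant line. Of 34 nearest ZNF536, a zinc finger regulator of neuronal differentiation, 18 were LNCaP-only and 1 resistant-only. CCNE1, which encodes cyclin E1, had 5 LNCaP-only and 0 resistant-only of 11. Over the stretch 35.4% of members were LNCaP-only and 1.91% resistant-only, and over all members 20.6% and 4.74%. Few resistant-only regions would thus be held by any set of this size. The genes of this stretch were named after their values were seen.

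Since these stretches were delimited on the classes of their regions, the values of the rest of each arm follow in part from that choice. The rest of the q arm, from 36 Mb, held 50 resistant-only (6.41%) and 126 LNCaP-only (16.2%) of 780 members, with a ratio of 1.86. The p arm outside the zinc finger cluster, up to 20 Mb, held 45 resistant-only (4.09%) and 208 LNCaP-only (18.9%) of 1101 members, with a ratio of 1.57.

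Chromosome 19 differed from the other autosomes in gene density, and its distal regions lay closer to genes. It held 46.1 annotated genes per Mb, against 13.4 to 32.6 on the other autosomes. The median distance of a member from the nearest gene end was 9141 bp, against 16904 bp, and 64.7% of members lay inside a protein-coding gene, against 54.7%. Between 3 and 10 kb from a gene end, 5.30% of 1263 members were resistant-only, against 3.48% on the other autosomes, and 18.5% were LNCaP-only, against 30.2%. Between 10 and 30 kb the shares were 4.42% of 838, against 3.14%, and 20.4%, against 31.6%. Between 30 and 100 kb, 2.79% of 215 members were resistant-only, against 2.998%, and 29.3% LNCaP-only, against 34.0%. Beyond 100 kb, 1 of 28 members was resistant-only (3.57%, against 3.83%) and 16 were LNCaP-only (57.1%, against 32.7%). The median percentile change of regions of all libraries was −3.49 on chromosome 19 against −12.8 elsewhere at 3 to 10 kb, and −4.55 against −14.4 at 10 to 30 kb. It was −17.1 against −15.7 at 30 to 100 kb, over 40 members, and only 1 such member lay farther away. The gain on chromosome 19 over the other autosomes was thus present within 30 kb of a gene end. Beyond it, where members were few, the resistant-only shares and the median change were not higher on chromosome 19, and beyond 100 kb the LNCaP-only share was higher.

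Across the 46 bins, the number of genes and the resistant-only share had a Pearson's r of 0.46 and a Spearman's rho of 0.44, and the number of genes and the LNCaP-only share −0.62 and −0.53. Across the 22 autosomes, genes per Mb and the ratio of shares had an r of 0.66 and a rho of 0.44, which were 0.30 and 0.36 without chromosome 19. For genes per Mb and the resistant-only share of an autosome, r was 0.38 and rho 0.22, and without chromosome 19 they were −0.02 and 0.10. These values describe bins and chromosomes that share the same 4 libraries, and the part of gene density in the gain was not tested.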

How the data were processed

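ATAC-seq libraries of LNCaP (2) and LNCaP-resistance (2) were analysed from the deposited peak summits, called by the authors on each library separately. The scores deposited by the authors are −log10 p-values or q-values, with minima just above 1.30. The submitters' processing notes name Bowtie2 2.2.5, SAMtools 1.6, MACS2 2.2.6, deepTools 3.5.2, HOMER 4.11 and hg38. Filters, thresholds and the handling of transposase offsets were not given in the sources used here. No read counts were used, so depth is unknown, and scores were compared only as percentiles within a library.

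Summits were widened by 250 bp per side and merged. Regions were placed by the strongest summit, by percentile, relative to both ends of 59679 genes (2699 on chromosome 19) of the RefSeq table of GRCh38, whose coordinates the summits share by build name. Summits outside the main chromosomes (0.0972% to 0.185% of a list) were left out. Groups came from the sample titles and batches from the labels (repeat1, repeat2). No test was run. The members, gene lists and tests were chosen with earlier results of these data known. Named members were the 10 resistant-only and 5 LNCaP-only regions of highest mean percentile, the 5 largest rises and 5 largest falls among regions of all libraries without overlap between the lines, the 5 of highest mean percentile, and the extreme 1 Mb bins. Other genes were named as members of a list, or after their values were seen. The latter were those with more than 1 resistant-only region and some of those nearest many LNCaP-only regions. No sequence is printed, because no genome sequence was used here and the RefSeq promoter sequences lie within 3 kb of gene ends. Alternatives covered window, score minimum, list length, distance limit, gene set, bin size, single libraries and single batches. The computation was tested on simulated lists. Computation used pandas 2.3.3, numpy 2.4.6 and scipy 1.17.1 under Python 3.11.15, and figures used matplotlib 3.10.9.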

Additional observations from a re-analysis of the deposited data

How the results depend on the processing

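Chromosome 19 kept the highest ratio of resistant to LNCaP share, the highest median percentile change of the regions of all libraries and the lowest LNCaP-only share of the 22 autosomes in every alternative run. It ranked below 1 or 2 other autosomes for the resistant-only share with membership by at least 1 library, over 10 kb from gene ends, without LNCaP-resistance replicate 2 and within repeat1. No paired test was run, since none was run at all; pairing the libraries by batch, the share of distal summits differed by 1.09 points in repeat1 and 1.15 in repeat2. With a score of at least 10, the resistant-only share was 7.78%, 2.35 times the other autosomes, the share of distal summits rose by 1.604 points and 12 bins had a resistant-only excess. With equal numbers of summits these values were 22.7%, 1.75, 1.23 and 36, and the LNCaP-only share was 12.9%. In both of these settings, absence from a library meant no summit above the cut. With membership by at least 1 library, 17.96% were resistant-only and 42.4% LNCaP-only. Over 1 kb from gene ends, 5.80% were resistant-only and the share rose by 1.39 points. Over 10 kb, the rise was 0.667 points, the LNCaP-only share 23.1% and the gap in percentile change 7.39 points. Within repeat1 and repeat2, 21.4% and 12.6% were resistant-only, 38.5% and 55.1% LNCaP-only, with 16 and 2 excess bins. Bins of 500 kb gave 13 and bins of 2 Mb 3. Leaving out each library in turn gave resistant-only shares of 6.62% to 16.5% (the highest without LNCaP-resistance replicate 2), LNCaP-only shares of 21.8% to 36.3%, folds of 1.47 to 1.56, share changes of 1.04 to 1.20 points, percentile gaps of 8.81 to 10.6 points and 3 to 20 excess bins. A region that must be in both libraries is rarer than a region that must be in 1, so these counts are not comparable with those of 4 libraries. The excess of resistant-only over LNCaP-only regions at 20 to 25 Mb was 4 to 20 without single libraries, and at 27 to 36 Mb −203 to −118 (−27 with equal numbers of summits). Percentiles among the distal regions of all libraries, and the stretches at 20 to 25 and 27 to 36 Mb, were added after seeing the data. Unknown depth limits every statement on absence of a summit.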
